A study of Rattus norvegicus with 9 samples.

Results

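The 10 genes Myc, Mycn, Mycl, Max, Mxd1, Mxd3, Mxd4, Mxi1, Mnt and Mlx, which encode transcription factors of the MYC, MAX and MXD network, were followed across 9 RNA-seq samples of RBL-2H3 cells. They were chosen by gene symbol among 38490 gene rows, of which 18006 had a value, and all 10 were found. RBL-2H3 cells derive from a rat basophilic leukemia and stand in for mast cells in many studies of allergy. The series asks how stimulation of the IgE receptor by antigen changes transcription in these cells.

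The samples formed 3 groups of 3. The group labelled IgE/DNP (DNP) had been sensitized with 50 ng/mL of IgE against dinitrophenyl for 12 h and then stimulated with the antigen DNP-HSA at 100 ng/mL for 4 h. The PF group had been given PF for 1 h ahead of the same antigen, and its own treatment labels put the stimulation at 4, 5 and 6 h in replicates 1, 2 and 3, whereas the protocol shared by all samples says 4 h. The sample titles of this group read PF1, shortened here to PF. The labels do not say what PF is, nor does the paper's text cover this group. The Ctrl group is called untreated in its own label, but the shared protocol lists the sensitization and the antigen for all samples, so whether Ctrl cells received IgE is unsettled. All cells were of a single line, and no source says that the replicates came from separate cultures. The p-values therefore measure only the spread between these samples, which may be technical.

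MYC, MYCN and MYCL are basic helix-loop-helix leucine zipper proteins that bind DNA only as a pair with MAX and mostly raise transcription, with ribosome building, nucleotide synthesis and cell growth among their best known targets. The MXD proteins MXD1, MXD3, MXD4 and MXI1, and the related MNT, pair with MAX too, occupy the same E-box sites and recruit the SIN3-HDAC corepressor, so they act against MYC. MLX is a MAX-like partner that pairs with MXD1, MXD4, MNT and the glucose-responsive factors MLXIP and MLXIPL.

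The network's DNA site is the E-box CACGTG, which reads the same on both strands. Of the 10 members, 8 had a promoter window in the RefSeq table for the rat build GRCr8, running from 250 bases before to 50 bases after the transcription start. Myc and Mycn had no entry. The E-box was in the windows of Max, Mxd4, Mnt and Mlx, 4 of the 8 (50%), and these letters were not in the windows of Mycl, Mxd1, Mxd3 and Mxi1. Of all 27457 genes with a window, 7.08% held the motif. The stretches of 50 bases around it are shown because MAX and its partners are themselves the proteins that bind this sequence, with the E-box in capitals.
Max, chr6:101395296-101395345, minus strand, 33 bases before the start: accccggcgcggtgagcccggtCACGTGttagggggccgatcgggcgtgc
Mxd4, chr14:80786562-80786611, plus strand, 197 bases before the start: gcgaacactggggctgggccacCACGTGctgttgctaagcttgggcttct
Mnt, chr10:60197814-60197863, plus strand, 123 bases before the start: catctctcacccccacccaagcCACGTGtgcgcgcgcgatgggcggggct
Mlx, chr10:86519794-86519843, plus strand, 70 bases before the start: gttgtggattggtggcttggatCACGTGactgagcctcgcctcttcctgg
A match of letters is a description and does not show that any factor bound there in these cells.

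Expression was read as FPKM, a unit that divides a gene's fragments by its length and by the total mapped, so levels of different genes can be set side by side. Per sample the deposited values added up to 573023 to 591539 FPKM for Ctrl and DNP and to 610206 to 630069 FPKM for PF, and the number of reads behind them is unknown. On all genes each of the 9 samples was nearest to another sample of its own group. Of 13 mast cell and basophil markers, 11 had a value and all 11 reached at least 1 FPKM, with sums of 5485 to 5884 FPKM. The T cell gene Cd3e (sum of the 4 T cell markers 6.78 to 9.61 FPKM) was also detected. So was Pecam1 (43.7 to 61.8 FPKM) from the list of fibroblast and endothelial markers, whose other genes Col1a1, Col1a2 and Pdgfra did not exceed 0.08 FPKM. Of the B cell and epithelial markers, Cd79a reached 1.01 FPKM and Krt8 1.10 FPKM at most, the other markers of these types stayed below 0.3 FPKM, and the macrophage and monocyte markers stayed below 1 FPKM. The labels call the source peripheral blood.

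In Ctrl cells the dimer partners were the most abundant members and the MYC paralogs other than Myc were nearly silent. Mlx stood at 68.9 ± 2.18 FPKM and Max at 68.6 ± 2.35 FPKM (SD, n = 3), and the samples of this pair overlapped in every group. Myc followed at 44.6 ± 2.78 FPKM and was higher than 77.8% of the 10504 expressed genes by its mean over all samples. Among the repressors the order was Mxi1 at 30.2 ± 0.562, Mxd4 at 16.6 ± 0.325, Mnt at 12.9 ± 0.282, Mxd1 at 4.80 ± 0.200 and Mxd3 at 0.40 ± 0.271 FPKM, with no overlap between neighbours in Ctrl. The same order held in the DNP and PF groups, except that Mxd4 and Mnt overlapped in DNP and that Max and Mlx, which overlapped, traded places in PF. Mycl did not exceed 0.10 FPKM in any sample, and Mycn was listed at 0 in all samples but DNP replicate 1 and PF replicate 3, where it was at 0.04 FPKM.

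Antigen raised Myc and lowered 3 of its antagonists, by small amounts. Myc was at 43.3, 42.7 and 47.8 FPKM in Ctrl replicates 1, 2 and 3 and at 49.3, 50.2 and 55.2 FPKM in DNP. Every DNP sample lay above every Ctrl sample, although Ctrl replicate 3 and DNP replicate 1 were close. The log2 fold change was 0.21 (standard error, SE, 0.0579; 95% interval 0.07 to 0.34, limma adjusted p = 0.029), on the log2(FPKM + 1) scale used throughout, which understates the change of low genes. In bulk RNA, a change in transcripts per cell and a change in the share of cells that carry them cannot be told apart. This call was lost when DNP replicate 2 (adjusted p = 0.0561), DNP replicate 3 (0.0894), Ctrl replicate 1 (0.0786) or Ctrl replicate 2 (0.0901) was left out, and also without a filter on low values (0.0709) or without the trend term of limma (0.0577).

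Mxd4, a repressor linked to cells that leave the cycle, had the largest fold change of the 7 members tested. It was at 16.7, 16.9 and 16.3 FPKM in Ctrl and at 11.2, 11.5 and 10.9 FPKM in DNP, so the groups lay far apart. Its mean fell by 32.6%, with a log2 fold change of -0.53 (SE 0.0474, limma adjusted p = 2.18e-04). Mnt, the broadly expressed antagonist of MYC, was at 12.7, 13.2 and 12.8 FPKM in Ctrl and at 10.4, 11.4 and 11.1 FPKM in DNP, without overlap. Its log2 fold change was -0.22 (SE 0.0535, limma adjusted p = 0.0179). Mxd1, an antagonist induced in many differentiating cells, was at 5.01, 4.79 and 4.61 FPKM in Ctrl and at 3.76, 3.94 and 3.53 FPKM in DNP, again without overlap. The log2 fold change was -0.29 (SE 0.0703, limma adjusted p = 0.0163). The smaller calls were near the threshold, and a fit with 1 library left out also has fewer samples. In such fits the log2 fold change ranged from -0.24 to -0.18 for Mnt and from -0.32 to -0.26 for Mxd1. Mnt was not called without DNP replicate 1 (adjusted p = 0.0648) or Ctrl replicate 2 (0.0554), and Mxd1 was not called without DNP replicate 3 (0.0573) or Ctrl replicate 1 (0.0503).

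Max, Mlx and Mxi1 were not called after antigen. Max, the obligate partner, was at 66.8, 67.8 and 71.3 FPKM in Ctrl and at 66.7, 61.0 and 61.1 FPKM in DNP, with DNP replicate 1 just under the lowest Ctrl sample. The interval of its log2 fold change ran from -0.23 to -0.02 (adjusted p = 0.0752), and it was called lower without DNP replicate 1 (0.0361). Mlx was at 68.8, 71.1 and 66.8 FPKM in Ctrl and at 65.3, 62.3 and 64.1 FPKM in DNP (log2 fold change -0.11, adjusted p = 0.0633), and was called lower without Ctrl replicate 3 (0.0482). Mxi1 was at 30.3, 29.6 and 30.7 FPKM in Ctrl and at 31.4, 30.8 and 30.1 FPKM in DNP. These groups overlapped, and the interval of the log2 fold change was -0.06 to 0.11.

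Of the 7 members tested in DNP against Ctrl, 1 rose and 3 fell. Of all 10392 genes tested, 29.2% were called, 14.7% higher and 14.4% lower. The groups did not overlap for 6 of the 7 members and for 45.8% of all genes, and the exact permutation test gave its smallest p for 3 against 3 samples, 0.1, for each of those 6. The median log2 fold change was -0.12 over the 7 members and -0.01 over all genes. Mxd3, Mycl and Mycn were under the filter of 1 FPKM in at least 3 samples and were not tested.

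**Figure D1:**
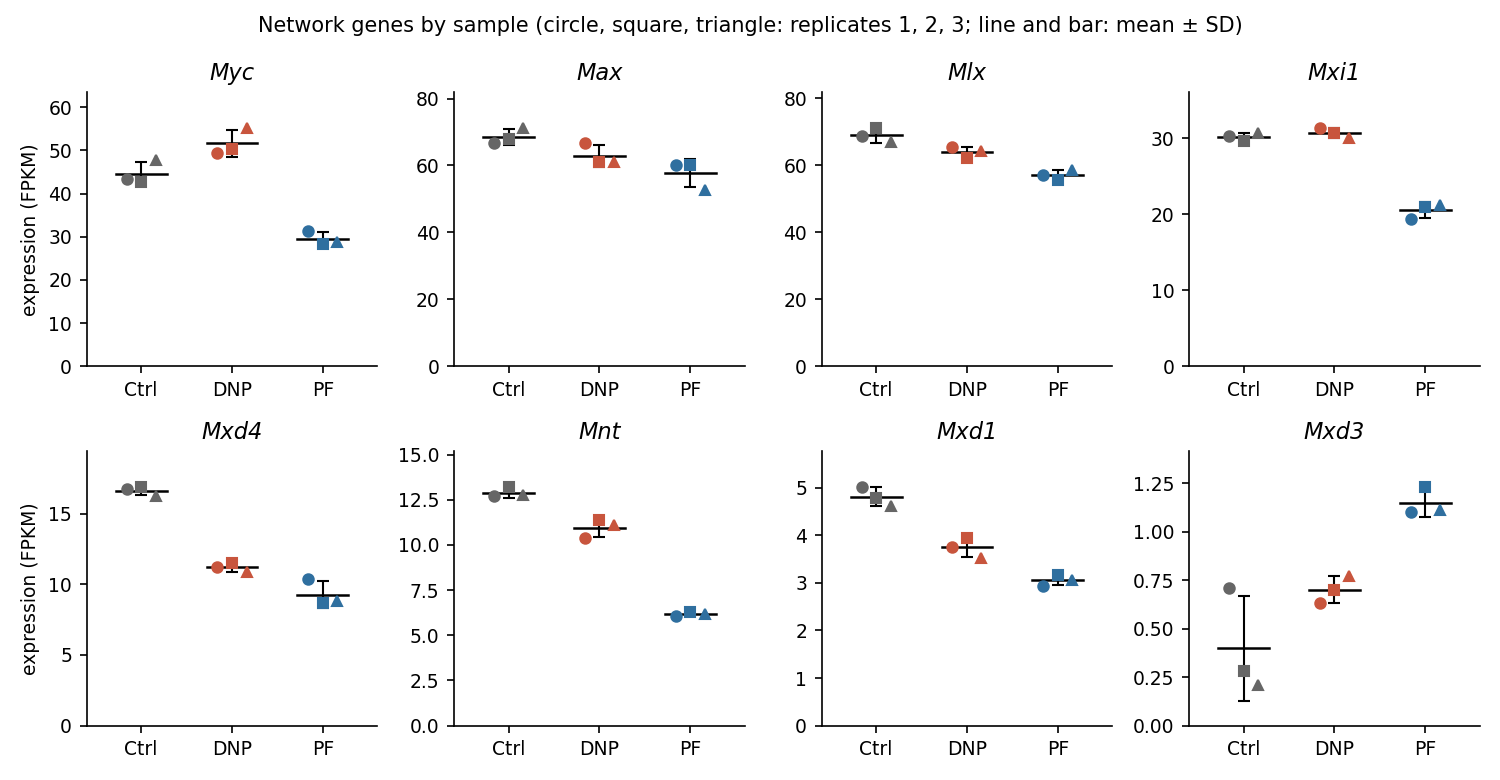
FPKM of 8 network genes (vertical axes, each from 0) in the Ctrl, DNP and PF samples, with circles, squares and triangles for replicates 1, 2 and 3 and lines and bars for mean ± SD. Myc is highest in DNP and lowest in PF, Mxd4, Mnt and Mxd1 step down from Ctrl to DNP to PF, and Mxi1 is lower only in PF; Mycl and Mycn, at 0.10 FPKM or less, are left out.

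With PF before the antigen, Myc and 5 of the other 6 members above 1 FPKM in every sample stood lower than with antigen alone. Myc was at 31.3, 28.3 and 28.9 FPKM in PF replicates 1, 2 and 3, below every DNP and every Ctrl sample. Its mean fell by 42.8% against DNP, with a log2 fold change of -0.79 (SE 0.0549, limma adjusted p = 7.57e-06). Against Ctrl the log2 fold change was -0.58 (SE 0.0581, limma adjusted p = 6.16e-05). PF was given only together with antigen, so an effect of PF itself and an effect on the response to antigen cannot be told apart.

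Mnt had the largest fall against Ctrl of the 7 members. It was at 6.07, 6.29 and 6.18 FPKM in PF, far below the other samples, and its mean fell by 43.6% against DNP (log2 fold change -0.73, SE 0.0585, limma adjusted p = 1.63e-05) and by 52.0% against Ctrl (log2 fold change -0.95, adjusted p = 3.49e-06). Mxi1, the antagonist that was not called after antigen, was at 19.3, 21.0 and 21.3 FPKM in PF. All 3 values were below those of the other groups, with a fall of 33.2% against DNP (log2 fold change -0.56, SE 0.0476, limma adjusted p = 2.44e-05). Mlx was at 57.1, 55.4 and 58.6 FPKM, also below both other groups, and its log2 fold change against DNP was smaller, at -0.16 (SE 0.0365, limma adjusted p = 0.00598).

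Mxd4 and Mxd1, already lower after antigen, were lower again in PF, with less certainty. Mxd4 was at 10.3, 8.68 and 8.81 FPKM, with PF replicate 1 close to the lowest DNP sample. Its log2 fold change against DNP was -0.25 (SE 0.071, limma adjusted p = 0.0172). The call was lost without PF replicate 2 (0.0553), PF replicate 3 (0.0527) or DNP replicate 2 (0.0547), and with PF replicate 1, the sample for which both labels give 4 h, as the only PF sample, the log2 fold change was -0.11 (0.328). Mxd1 was at 2.94, 3.16 and 3.06 FPKM, below all DNP samples, with a log2 fold change of -0.23 (SE 0.0734, limma adjusted p = 0.0307). That call was lost without PF replicate 1 (0.0878), PF replicate 3 (0.061), DNP replicate 1 (0.079) or DNP replicate 2 (0.103), without a filter on low values (0.0679), with values scaled by median ratios (0.0654) and with PF replicate 1 alone (0.106). With the replicate number as a block it was 0.0675.

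Max was at 60.2, 60.2 and 52.8 FPKM in PF and was not called against DNP (log2 fold change -0.12, interval -0.26 to 0.01, limma adjusted p = 0.11). The sample ranges did not overlap, but PF replicate 2 and DNP replicate 2 differed by under 1 FPKM. When samples were brought to an equal sum of FPKM, a sum that was higher in PF as deposited, Max was called lower (log2 fold change -0.22, adjusted p = 0.00785). Mxd3, the member tied to dividing cells, had its highest values in PF. It was at 0.71, 0.28 and 0.21 FPKM in Ctrl, at 0.63, 0.70 and 0.77 FPKM in DNP and at 1.10, 1.23 and 1.11 FPKM in PF. Every PF sample was above the rest, Ctrl replicate 1 stood apart from the other Ctrl samples, and the gene reached the filter only through the PF group. A gene that is kept because it is high in 1 group had to differ there, so these values are a description and no test of Mxd3 is given.

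Of the 7 members at or above 1 FPKM in every sample, 6 fell in PF against DNP and all 7 fell against Ctrl. Mxd3 is left out of this count. Many genes were called in these comparisons. Against DNP, 48.8% of 10329 genes were called, 18.1% higher and 30.7% lower, and against Ctrl 57.7% of 10361 genes, 23.1% higher and 34.6% lower. The groups did not overlap for 57.6% and 64.8% of all genes, and for each of the 7 members in both comparisons, where the exact permutation p was again 0.1, the smallest possible. The median log2 fold change of all genes was -0.04 against DNP and -0.05 against Ctrl. Both comparisons use the same PF samples, and the DNP and Ctrl samples enter 2 comparisons each.

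The share of higher calls among all genes depended on the scaling of the samples. Against DNP it was 37.1% as deposited, 16.8% with samples brought to an equal sum and 51.5% with median ratios. Against Ctrl it was 40.0%, 26.7% and 51.1%. None of these 7 members changed direction with either scaling in any comparison. Against Ctrl the log2 fold changes were -0.78 for Mxd4, -0.54 for Mxi1, -0.52 for Mxd1, -0.27 for Mlx and -0.25 for Max, with a highest limma adjusted p of 0.00572. The fall of Myc, Mnt, Mxi1, Mxd1, Mxd4, Max and Mlx against Ctrl was called with both, and with PF replicate 1 as the only PF sample Max alone lost its call there (log2 fold change -0.19, adjusted p = 0.0573).

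**Figure D2:**
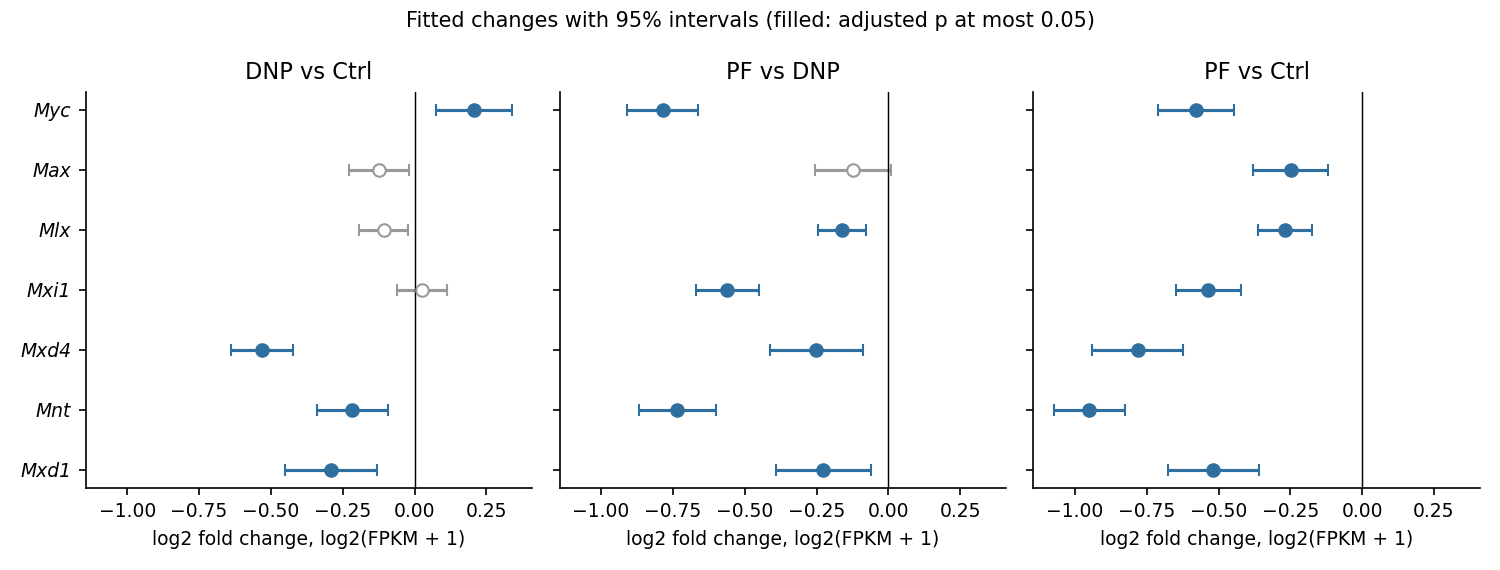
Log2 fold changes of the 7 network genes above 1 FPKM in every sample on the log2(FPKM + 1) scale (horizontal axes) with 95% intervals in the 3 comparisons, filled where the limma adjusted p was at most 0.05. Antigen gave Myc at 0.21 and Mxd4 at -0.53 as the ends of the range, and in PF against Ctrl every gene lies left of 0, down to Mnt at -0.95.

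Ratios between members were taken within each sample, so they do not depend on the scaling between samples, and they are given as a description with no test. Myc to Max was 0.649, 0.629 and 0.670 in Ctrl, 0.740, 0.823 and 0.903 in DNP and 0.520, 0.471 and 0.546 in PF. The 3 groups did not overlap. In every sample the FPKM of Max was above that of Myc. Myc to the sum of the 5 repressors was 0.662, 0.659 and 0.740 in Ctrl, 0.859, 0.862 and 0.980 in DNP and 0.786, 0.701 and 0.714 in PF. DNP lay above both other groups, and the Ctrl and PF ranges overlapped, although Myc itself was lower in PF than in Ctrl. The repressor sum was 64.6 to 65.4 FPKM in Ctrl, 56.3 to 58.3 FPKM in DNP and 39.8 to 40.4 FPKM in PF. These are ratios of RNA, and protein levels were not part of these data.

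The repressors did not contribute alike. Myc to Mnt was 3.46 ± 0.261 in Ctrl, 4.71 ± 0.283 in DNP and 4.77 ± 0.337 in PF (SD, n = 3), so both stimulated groups lay above Ctrl and overlapped each other. Myc to Mxd1 was 9.30 ± 0.925, 13.8 ± 1.57 and 9.68 ± 0.864, and Myc to Mxd4 was 2.68 ± 0.222, 4.61 ± 0.408 and 3.19 ± 0.142, with DNP highest in both. Myc to Mxi1 was 1.48 ± 0.0686, 1.68 ± 0.139 and 1.44 ± 0.153, and here PF replicate 1, at 1.62, lay within the DNP range of 1.57 to 1.84. Mxi1 made up the largest share of the repressor sum in every sample, from 45.7% to 54.7%. Mnt made up 18.1% to 20.4% in Ctrl and DNP samples and 15.3% to 15.6% in PF samples. Mxd3 made up at most 1.37% in Ctrl and DNP samples and 2.75% to 3.05% in PF samples.

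**Figure D3:**
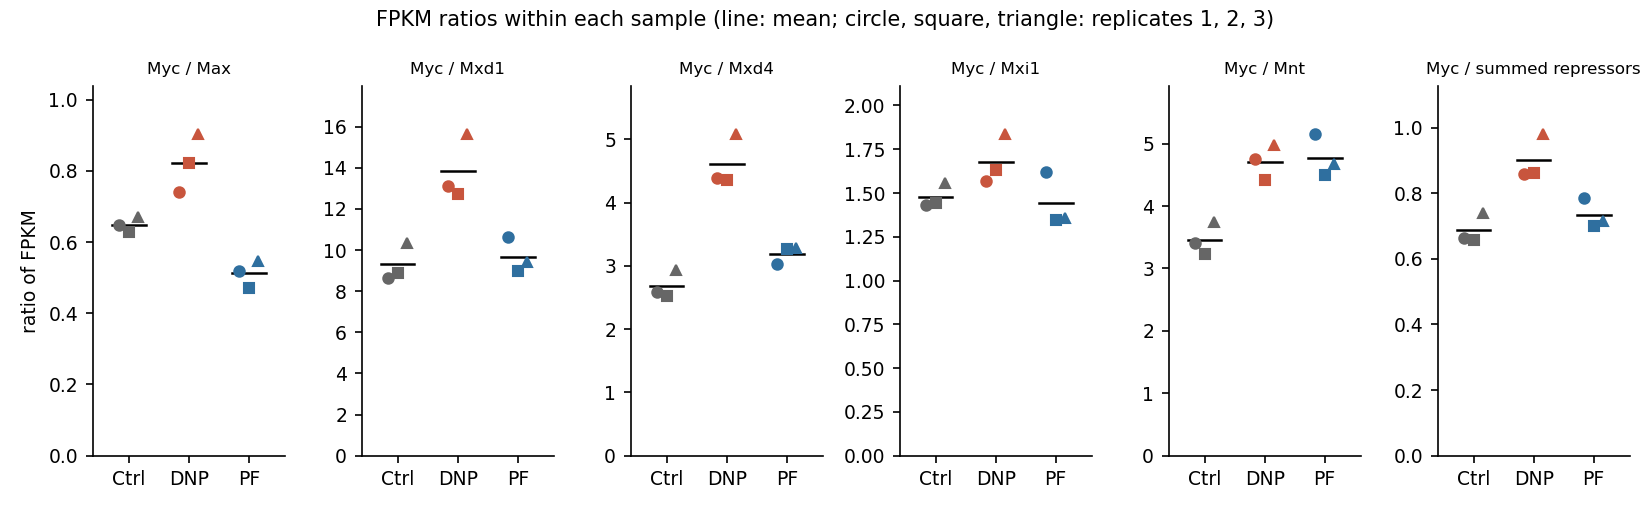
Ratios of Myc FPKM to Max, to single repressors and to the repressor sum in each sample (vertical axes, each from 0), with lines for group means and circles, squares and triangles for replicates 1, 2 and 3. Myc to Max separates all 3 groups, and Myc to the summed repressors is highest in DNP, at 0.859 to 0.980.

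Genes around the network were read from lists of textbook partners and targets. These lists were chosen with earlier results of these data known, so their counts beside those of all genes are a description. With samples brought to an equal sum, 869 of all 10320 genes rose in PF against DNP and 4302 fell. With median ratios 2758 of 10318 rose and 2600 fell. Of 5 further network genes 3 had a value. Mlxip, the glucose sensor that pairs with MLX, fell after antigen from 11.8, 12.3 and 10.5 to 8.87, 9.17 and 7.76 FPKM (log2 fold change -0.38, SE 0.08, limma adjusted p = 0.009). In PF against DNP, Mga, a MAX partner that also carries a T-box, fell (log2 fold change -0.41, adjusted p = 0.00465) and Mycbp, which encodes a MYC-binding protein, rose (0.28, adjusted p = 0.00125). Of 12 genes of the SIN3-HDAC corepressor, 1 was called by limma after antigen, a share of 8.33%, below the 29.2% of all genes. It was the scaffold Sin3a, which fell (-0.24 on the log2 scale, adjusted p = 0.00497) and fell again in PF against DNP (-0.28, adjusted p = 0.00128). After antigen 1 of the 12 rose without DNP replicate 3, 2 rose without Ctrl replicate 1 and 2 fell without DNP replicate 2. In PF against DNP 4 of the 12 rose and 2 fell, a called share of 50% that was near the 48.8% of all genes, with the deacetylase Hdac2 highest at 0.36 and Arid4b lowest at -0.59, and 2 in place of 4 rose with samples brought to an equal sum.

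Of 15 coactivators and partners of MYC, 5 rose and 3 fell after antigen, a called share of 53.3% against 29.2% of all genes, with the fallen genes near their share of 14.4% over all genes. The acetyltransferase Kat2a rose from 19.6, 20.5 and 22.5 to 32.0, 31.3 and 29.1 FPKM, with a log2 fold change of 0.54 (SE 0.0597, limma adjusted p = 5.75e-04). It was at 39.0, 38.6 and 36.4 FPKM in PF, above all DNP samples (log2 fold change 0.30, adjusted p = 9.97e-04). Zbtb17, which encodes the factor MIZ1 through which MYC represses genes, fell after antigen (-0.30, adjusted p = 0.00253) and was higher in PF than in DNP (0.24, adjusted p = 0.00224). In PF against DNP, 5 of the 15 rose and 4 fell (60% called, against 48.8% of all genes), or 3 and 7 with samples brought to an equal sum, and the acetyltransferase genes Crebbp (-0.55) and Kat5 (-0.52) were lowest. Without DNP replicate 2, 3 of the 15 rose after antigen, and 3 also did with the replicate number as a block.

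Of 17 genes with a value that act on MYC protein stability or phosphorylation, 3 rose and 3 fell after antigen, which at 35.3% called was near the 29.2% of all genes. The kinase gene Pim3 fell from 27.9, 29.7 and 29.3 to 20.2, 18.6 and 18.1 FPKM (log2 fold change -0.59, limma adjusted p = 2.17e-04) and to between 11.01 and 11.44 FPKM in PF (-0.70 against DNP, adjusted p = 1.38e-05). Its relative Pim1 rose after antigen (0.25, adjusted p = 0.00353) and was lower in PF than in DNP (-0.58, adjusted p = 1.56e-05). In PF against DNP 5 of the 17 rose and 8 fell (76.5% called, against 48.8% of all genes). Among them the ubiquitin ligase gene Trim32 was lowest at -0.85 (adjusted p = 9.48e-05) and the ligase gene Stub1 highest at 0.39 (adjusted p = 2.01e-04). The count of 5 that rose became 3 without PF replicate 1, PF replicate 3, DNP replicate 1 or DNP replicate 2, and 1 with samples brought to an equal sum.

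Many textbook MYC-activated targets rose with antigen, by small amounts. Of 46 such genes, 25 rose (54.3%, against 14.7% of all genes tested) and 0 fell in limma, with a median log2 fold change of 0.12 (31 higher and 1 lower at an unadjusted p under 0.05, and 1 fell without Ctrl replicate 3). Nop56, a small nucleolar ribonucleoprotein gene, rose from 84.2, 87.5 and 84.7 to 107.6, 112.7 and 112.7 FPKM (log2 fold change 0.37, SE 0.0342, limma adjusted p = 2.44e-04). Pa2g4 (0.41, adjusted p = 4e-04) and the folate carrier Slc19a1 (0.46, adjusted p = 0.00164) changed more. Of all genes tested, 5.43% changed at least as much as Slc19a1, which moved most of the 25. For Nme1, which moved least of the 25, that share was 55.5%, so a call could rest on a change of common size. The count of 25 was 13 without DNP replicate 3 and 16 without the trend term. In PF, Nop56 was at 137.7, 131.5 and 124.6 FPKM, above all DNP samples (0.24, limma adjusted p = 0.00153). Myc was lower in these samples, and a link between Myc and Nop56 was not tested. The pseudouridine synthase gene Dkc1 also rose against DNP (0.39, adjusted p = 2.19e-04).

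In PF against DNP, where 18.1% of all genes rose and 30.7% fell, 18 of the 46 rose and 3 fell, with a median log2 fold change of 0.11. The hexokinase gene Hk2 (-0.23), the serine hydroxymethyltransferase gene Shmt2 (-0.19) and Prmt3 (-0.14) were those that fell, and 1 fell without PF replicate 1 or without DNP replicate 3. These counts turned on the scaling, as did those of all genes. With samples brought to an equal sum 8 rose and 8 fell, against 869 and 4302 of all 10320 genes tested. The median log2 fold change was then 0.01 for the list and -0.13 for all genes. With median ratios 25 rose and 1 fell, against 2758 and 2600 of 10318 genes, and the medians were 0.16 and 0.02. Against Ctrl, where 23.1% of all genes rose, 32 rose and 2 fell (1 without PF replicate 1 or Ctrl replicate 1). With the scaling to sums 21 rose and 3 fell, against 1575 and 4316 of all 10343 genes. The spermidine synthase gene Srm was called higher in PF than in DNP (0.72, SE 0.253, limma adjusted p = 0.0412), but it was at 38.8 FPKM in DNP replicate 2 and 16.1 FPKM in Ctrl replicate 3 against 82.2 to 119.9 FPKM in the other samples. The E-box was in the promoter window of 15 of the 42 activated targets that matched (35.7%), against 7.08% of all genes with a window. The share was 20% for repressed targets (2 of 10) and 25% for targets of MLX with MLXIP or MLXIPL (1 of 4). It was 14.3% for coactivators and partners, 12.5% for the genes of MYC protein turnover, and 0% for the corepressor and the further network genes.

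Textbook MYC-repressed targets moved further than the activated ones by their median, and mostly downward in both steps. Of 7 tested, 5 fell and 1 rose after antigen, and all 7 fell in PF against DNP and against Ctrl, where 14.4%, 30.7% and 34.6% of all genes fell, with median log2 fold changes of -0.31, -0.68 and -0.85. Cdkn1b, which encodes the cell cycle inhibitor p27, was at 124.8, 109.3 and 114.6 FPKM in Ctrl, at 90.5, 78.6 and 82.6 FPKM in DNP and at 46.2, 49.8 and 50.4 FPKM in PF. Its groups did not overlap, and it fell by 0.47 on the log2 scale after antigen (limma adjusted p = 0.00133) and by 0.77 in PF against DNP (limma adjusted p = 9.62e-06). Cdkn1a, the gene of the inhibitor p21, fell by 0.32 (adjusted p = 8.57e-04) and then by 0.52 (adjusted p = 7.79e-05), and the growth arrest gene Gadd45a fell from 1891 to 1530 and 952.2 FPKM in the group means. Gadd45b was the 1 gene that rose after antigen (0.30, adjusted p = 0.0449), but 0 rose without DNP replicate 1, DNP replicate 2, DNP replicate 3 or Ctrl replicate 1, and 2 rose without Ctrl replicate 3. At an unadjusted p under 0.05, 2 were higher. The repressed targets were lower in PF, where Myc was lower too, and a link between them was not tested.

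**Figure D4:**
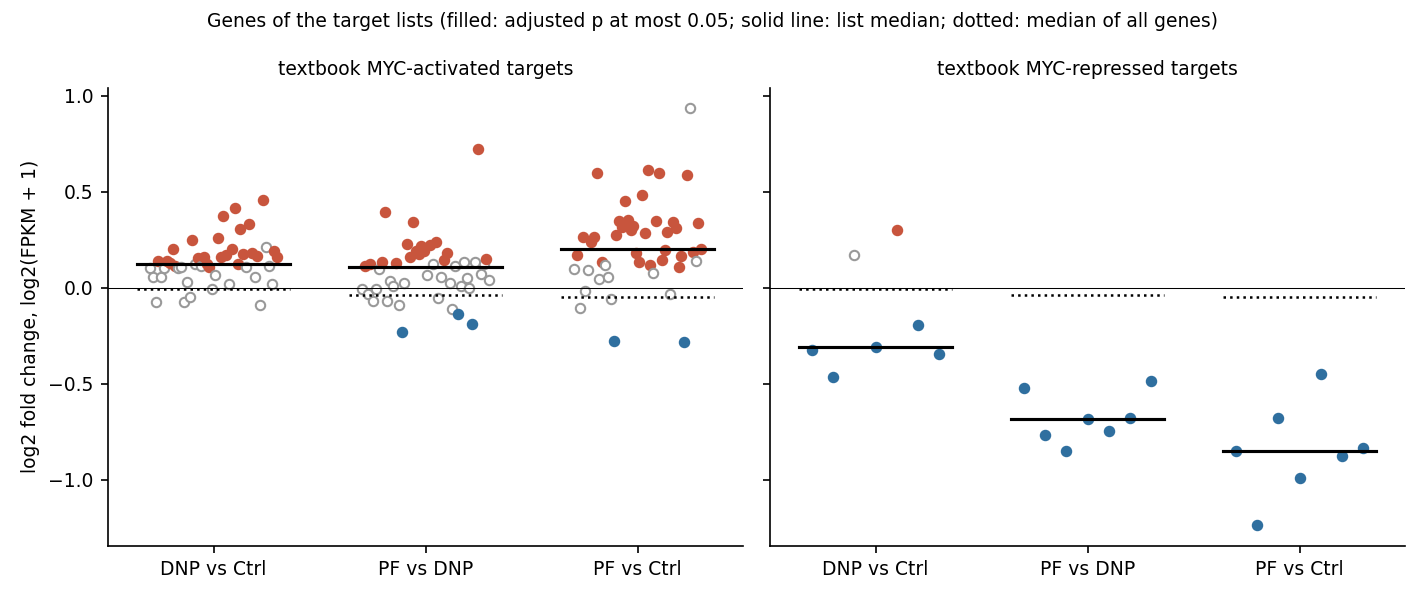
Log2 fold changes on the log2(FPKM + 1) scale (vertical axis) of single genes of the MYC-activated list (left, 46 genes) and the MYC-repressed list (right, 7 genes) in the 3 comparisons, filled where the limma adjusted p was at most 0.05. Solid lines are list medians, from 0.11 to 0.20 on the left and from -0.31 to -0.85 on the right, and dotted lines are the medians of all genes tested.

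Of 6 tested targets of MLX with MLXIP or MLXIPL, 1 rose and 3 fell after antigen, where 14.7% of all genes rose and 14.4% fell. Txnip, a brake on glucose uptake, was at 410.2, 416.4 and 418.5 FPKM in Ctrl and at 224.2, 229.4 and 221.3 FPKM in DNP, far apart, with a log2 fold change of -0.88 (SE 0.0297, limma adjusted p = 1.04e-06). It was at 197.4, 207.8 and 201.0 FPKM in PF, a smaller further fall (-0.15, adjusted p = 0.00389). The zinc finger gene Klf10 fell in both steps (-0.52, adjusted p = 1.39e-04, and -0.33, adjusted p = 4.05e-04). Fasn, the fatty acid synthase gene, rose in both (0.25, adjusted p = 0.015, and 0.68, adjusted p = 3.65e-06). In PF against DNP, where 18.1% of all genes rose and 30.7% fell, 2 of the 6 rose and 2 fell, but 4 rose with median ratios, 1 with samples brought to an equal sum, and 1 without PF replicate 1, PF replicate 3, DNP replicate 1 or DNP replicate 3. Without DNP replicate 2 none of the 6 was called higher after antigen by limma, which had 1 higher at an unadjusted p under 0.05 with all samples.

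The genes whose values followed Myc and Mxd1 most closely over the 9 samples were found by Pearson correlation of log2(FPKM + 1) among 10503 genes, as a description, since the samples fall into 3 groups and each r mainly reflects the order of the groups. Arhgap18 (0.993), RGD1565785 (0.992), Tlk1 (0.991), LOC100910807 (0.989) and Sh2d1b (0.987) were nearest to Myc. Per1 (0.992), Tbl2 (0.992), Fbxl21 (0.992), Lrp11 (0.990) and Ret (0.988) were nearest to Mxd1. Like Mxd1, Per1 stepped down, from 28.7 to 32.1 FPKM in Ctrl to 21.1 to 23.1 FPKM in DNP and 16.2 to 16.8 FPKM in PF.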

How the data were processed

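RNA from 9 RBL-2H3 samples was sequenced, 3 per group. The study's methods name a BGISEQ-500 sequencer and read filtering by SOAPnuke, while the labels describe Illumina libraries. The submitters' processing notes name HISAT2 2.0.4, Bowtie2 2.2.5, RSEM 1.2.12 and the build rn6, and the annotation is not given in the sources used here. Each gene has 1 deposited value per sample, whose header gives no unit and which was read as FPKM as the authors made it with RSEM, so the count test of the study could not be run and depth in reads is unknown.

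Samples were joined by gene identifier and grouped by their labels. The test was limma 3.58.1 in R 4.3.3 (lmFit, eBayes with trend) of log2(FPKM + 1) values, kept where 3 or more of the 6 compared samples reached 1 FPKM, with Benjamini-Hochberg adjustment over all genes tested and a threshold of 0.05. It was tested on simulated data with normal noise on the log2 scale, independent between samples, so batch or scaling effects were not part of that test. For single members a two-sided exact permutation test was added, whose smallest p is 0.1. All members were named, and of each list at most the 3 highest and 3 lowest genes called in a comparison, plus the 5 genes nearest to Myc and to Mxd1. The members and lists were chosen with earlier results of these data known. Alternatives were a pseudocount of 0.1, no filter, 1 FPKM in every sample, a fit of all 3 groups, replicate number as block, scaling by median ratios or to the mean of the sums, no trend, each sample left out, and PF replicate 1 alone.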

Additional observations from a re-analysis of the deposited data

How the results depend on the processing

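None of the 7 members above 1 FPKM in every sample changed direction under the alternatives run. Of their recomputed values, 86 of 98 in DNP against Ctrl, 92 of 105 in PF against DNP and 104 of 105 in PF against Ctrl stayed on their side of the threshold. The number of members called was 4 in DNP against Ctrl, and 2 to 5 with 1 sample left out. Of all genes, 1530 rose and 1501 fell in DNP against Ctrl. With 1 sample left out, 1060 to 1427 rose and 1014 to 1309 fell. In the PF comparisons Mxd3, which is in the test only through its PF values, is left out of the counts. There, 6 members fell in PF against DNP, and 4 to 6 with 1 sample left out. Of all genes, 3172 fell in PF against DNP, and 2626 to 3070 with 1 sample left out. Against Ctrl 7 members fell in each of these fits, where 3586 of all genes fell, and 3123 to 3422 with 1 sample left out. The fit with PF replicate 1 as the only PF sample assumes that this lone sample varies like the other group. The fits with 1 sample fewer test with fewer samples, and no other cause was tested. Groups share replicate numbers in the labels. Deviations of same-numbered samples from their group means correlated at -0.07 to 0.05 in DNP against Ctrl and -0.08 to 0.0005 in PF against DNP. In PF against Ctrl all correlations were positive but small, at 0.08 to 0.19. With the replicate number as a block, 4 members were called in DNP against Ctrl, where 1368 of 10392 genes rose and 1329 fell. In the same setting, without Mxd3, 5 members fell in PF against DNP and 7 against Ctrl. Of all genes, 2971 of 10329 and 3573 of 10361 fell there. The call lost was Mxd1 in PF against DNP. Because FPKM holds no counts, counting error cannot be given for the low members Mxd3, Mycl and Mycn.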
